A study of Xenopus laevis with 12 samples.

Results

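Homeologs are the 2 copies of a gene that an allotetraploid carries, 1 from each ancestral genome, and in *Xenopus laevis* they are named .L and .S after the chromosome set on which they lie. The balance between L and S was measured in untreated tadpoles at stage 35. A pair was taken wherever a symbol had both an L and an S entry in the deposited table of log2 CPM (log2 of counts per 1000000 counts of a library), which gave 6567 pairs among the 26050 genes listed. The 6 control libraries described here each held RNA of 15 pooled wild-type (WT) whole embryos kept without thioridazine. Embryos of 3 of them were raised in groups of 100 (control small, replicates 1 to 3) and those of the other 3 in groups of 300 (control large, replicates 1 to 3). The remaining 6 libraries of the series came from WT embryos of the same stage and the same group sizes that were exposed to 90 µM thioridazine, an antipsychotic drug, and they were used only to see whether a bias was found again and whether it moved. Pooling hides differences between tadpoles, and by the study's methods embryos of several mothers were mixed before they were assigned to treatments. Replicate pools may thus share parents, and the p-values cover only the spread between pools, which may be technical.

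*X. laevis* arose when the genomes of a pair of frog species were joined. The chromosomes of 1 progenitor stayed longer and are called L, and those of the other became shorter and are called S. Many genes kept both copies while others lost 1, more often on S. Kept copies can stay equal, can divide the work between tissues or stages, or can leave most of the transcript to 1 copy. A whole-tadpole ratio sums over all tissues, so a pair with opposite biases in different tissues can look balanced. By stage 35 the tailbud tadpole has contractile trunk muscle, a beating heart, a pigmented eye and skin, and a liver anlage, and each library held all of these tissues.

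Levels are in CPM, obtained as 2 raised to the deposited log2 value. That value contains an offset of 0.5 counts, so that a copy with no counts is listed slightly above 0. They are not per base of transcript, because no transcript or coding length was at hand, so a difference in transcript length between copies is part of every L to S ratio. RSEM, the program that made the counts, divided reads that match both copies, and pairs with nearly identical sequence are therefore less certain. The ratio is given as L minus S on the log2 scale: a value of 1 means that L was 2-fold higher, and a value of −1 that S was. The 6 libraries held 4887343 to 7417714 counts, and the detection limit, taken as 3 counts, was 0.404 to 0.614 CPM (counting error only). Of 26 marker genes of 10 tissues, 22 had an entry, and every tissue had at least 1. The heart markers nppa and myl2 stayed between 1.07 and 2.83 CPM, whereas ckm of muscle, with its copies summed, lay between 2308 and 2960 CPM. In such bulk RNA fewer cells of a type and less RNA per cell cannot be told apart.

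The L copy was the more abundant one in most pairs, by a small margin. The median of L minus S was 0.30 log2, or 1.23-fold, and the medians of the 6 libraries lay between 0.29 and 0.33. L was higher on average in 4103 pairs (62.5%). It was higher in all 6 libraries in 3302 pairs (50.3%), S was higher in all 6 in 1737 (26.5%), and the sign was mixed in 1528 (23.3%). The quartiles were −0.33 and 1.00, and the quantiles at 0.01 and 0.99 were −2.97 and 4.01, so the tail was longer toward L. Summed over all pairs, L supplied 54.5% to 55.1% of the CPM in a library.

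Each pair was then placed in 1 of 4 classes. A pair was called biased where limma's test against a 2-fold threshold gave an adjusted p under 0.05, and balanced where the 95% interval of L minus S lay within 2-fold either way. On this rule 1249 pairs (19.0%) were L-biased, 498 (7.58%) were S-biased and 3566 (54.3%) were balanced, which left 1254 (19.1%) unresolved. There were thus 2.51 L-biased pairs for each S-biased pair. The mean ratio exceeded 4-fold in 538 pairs toward L and 189 toward S, and exceeded 16-fold in 67 and 23. The standard error of L minus S had a median of 0.09, and unresolved pairs were lower in level than balanced ones (median summed level 22.3 against 51.4 CPM).

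**Figure D1:**
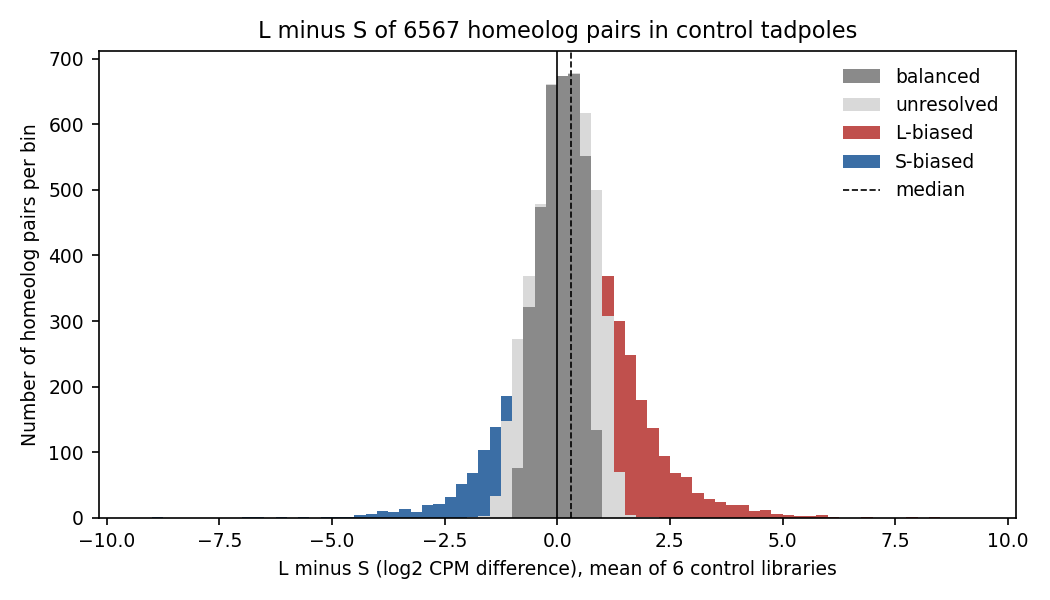
Number of homeolog pairs (vertical axis) by L minus S in log2 CPM (horizontal axis, mean of the 6 control libraries), stacked by class, with a solid line at 0 and a dashed line at the median of 0.30. The red L-biased side holds 1249 pairs and the blue S-biased side 498, and balanced pairs (dark grey) fill the centre.

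The balanced share grew with the level of the pair. The pairs were ranked by the mean log2 CPM of their 2 copies and cut into 5 equal groups. In the lowest group 36.9% were balanced (median summed level 9.82 CPM), and in the highest 71.6% (189 CPM). A weak copy lowers this mean, so a strongly biased pair ranks lower than its summed level would place it. How much of the rise in the balanced share comes from this ranking was not tested. L-biased pairs made up 19.6% of the lowest group and 14.0% of the highest, and S-biased pairs 7.76% and 5.56%. Both shares were largest in the group next to the lowest, at 23.6% and 9.9%. The share of pairs with a higher L copy was 62.9% in the lowest group and 62.3% in the highest. The unresolved class held 469 of 1314 pairs in the lowest group and 116 of 1314 in the highest.

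The lean toward L was seen on every chromosome pair. Chromosomes were taken from RefSeq records of assembly Xenopus_laevis_v10.1, in which 6564 pairs lay on matching L and S chromosomes. The median of L minus S was above 0 on all 9 chromosome pairs, from 0.23 on pair 9/10 (the fused chromosomes 9 and 10) to 0.36 on pair 5. The share of L-biased pairs ranged from 15.1% on pair 9/10 to 22.8% on pair 8, and that of S-biased pairs from 6.19% on pair 5 to 9.43% on pair 4. Pairs that are neighbours on the L chromosomes had ratios with a correlation near 0 (Pearson r 0.03 across 6555 neighbouring pairs, which are not independent replicates). The ratio of gene spans, introns included, was as weakly related to L minus S (r 0.06 across pairs), and its median was 1.01. Spans differed by over 2 times in 23 of the 208 named pairs, and the part of length in their ratios was not tested: apex1 (2.06), mrpl42 (2.14), rpl36 (2.29), foxn3 (2.39), nid1 (2.41), hoxa9 (2.44), pdha1 (2.49), hoxa5 (2.53), slc38a5 (2.72), wnt5b (2.86), ralgapb (2.88), cacna2d3 (2.89), rpa2 (3.08), nog2 (3.62), nlgn3 (3.65), tpr (3.87), mpo (4.17), slc38a10 (4.66), ttr (4.81), gtf2a1 (6.43), purb (6.80), smc2 (7.51) and angpt4 (11.02).

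**Figure D2:**
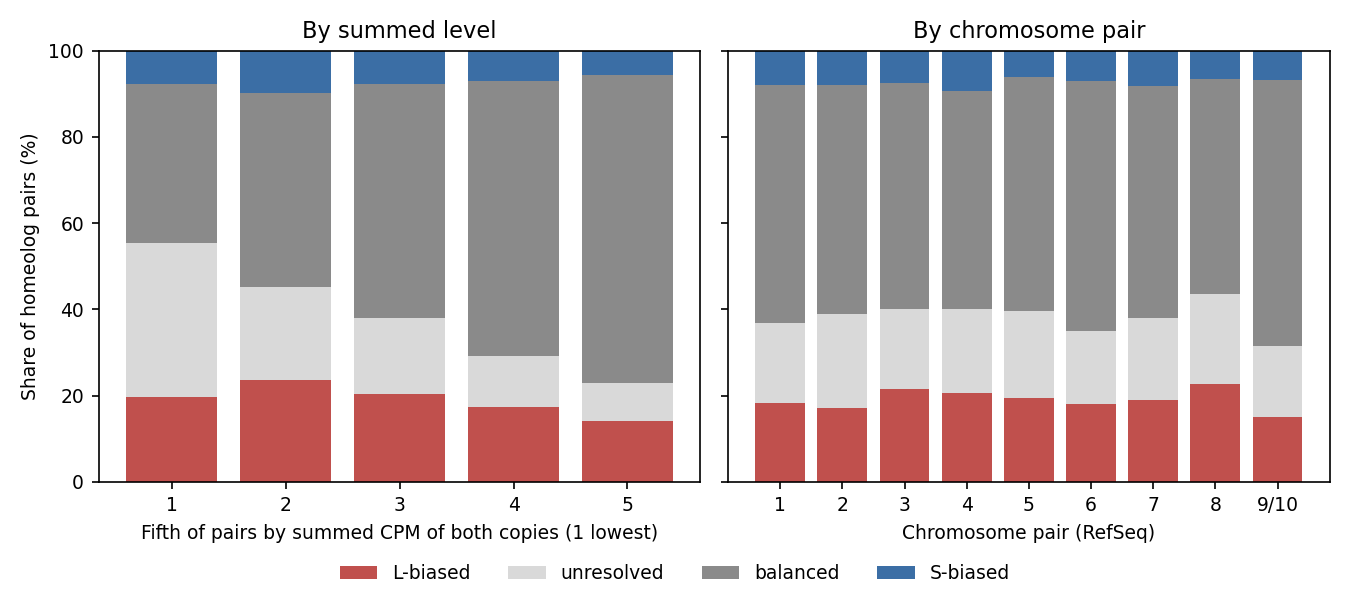
Share of homeolog pairs in each class (vertical axis, %), by level from lowest (1) to highest (5) on the left and by chromosome pair on the right. Level here is the mean log2 CPM of both copies, although the left panel is labelled as summed CPM. The balanced share grew from 36.9% to 71.6% with level, and L-biased pairs outnumbered S-biased ones on every chromosome pair.

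The strongest biases toward L included abundant muscle genes. The largest was that of ckm, the creatine kinase of muscle, with 2302 to 2948 CPM (median 2647) for L and 5.40 to 11.8 CPM (median 7.91) for S. L was 335-fold higher (L minus S 8.39 ± 0.07, mean ± SE, adjusted p = 1.21e-26 with limma). Nebulin (neb), the giant protein along the thin filaments of muscle, had 1649.7 to 2345 CPM (median 1874) for L and 25.3 to 47.5 CPM (median 31.2) for S, a 56.6-fold difference (5.82 ± 0.07). For both genes the S copy was still far above the limit of detection. The copies did not overlap across libraries, which follows from picking the largest ratios. The gene labelled thyroid hormone down-regulated protein 20 (thdl20) was 246-fold higher on L, with 353 to 451 CPM (median 432) for L and 1.35 to 2.32 CPM (median 1.59) for S.

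The other large L biases were found in genes of varied function. bcat1, which starts the breakdown of branched-chain amino acids in the cytosol, had 118 to 157 CPM (median 140.0) for L and 0.615 to 2.03 CPM (median 1.05) for S, a 126-fold difference. slc44a1, a choline carrier, had 106 to 148 CPM (median 119) for L and 1.51 to 2.35 CPM (median 1.99) for S (63.4-fold), and pygb, a glycogen phosphorylase, had 137 to 194 CPM (median 178) for L and 1.54 to 5.99 CPM (median 3.56) for S (52.1-fold). In these genes the S copy sat within a few CPM of the detection limit. tyrp1, a melanosome enzyme of pigment cells, was 58.7-fold higher on L, with 163 to 215 CPM (median 185) for L and 2.21 to 5.27 CPM (median 3.16) for S. Of the extracellular genes, fras1, which anchors epidermis to the layer beneath, had 156 to 191 CPM (median 169) for L and 1.44 to 3.50 CPM (median 3.29) for S (59.2-fold). col4a5, a collagen chain of basement membranes, had 459 to 538 CPM (median 495) for L and 9.22 to 14.8 CPM (median 13.1) for S (39.8-fold). The galectin lgals3 (71.9-fold), the Ral GTPase regulator ralgapb (53.6-fold) and mcub, a subunit of the mitochondrial calcium uniporter (49.1-fold), completed the 12 largest. The S copy of mcub fell below the 3-count limit in 1 library, and its ratio had the largest SE of the 12 (SE 0.21).

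The largest S bias was greater than the largest L bias. col6a5, a chain of the microfibrillar collagen VI, had 1.29 to 2.69 CPM (median 1.90) for L and 826 to 901 CPM (median 847) for S, so that S was 468-fold higher (L minus S −8.87 ± 0.07, adjusted p = 1.21e-26 with limma). E-cadherin (cdh1), which holds epithelial cells together, had 0.471 to 2.80 CPM (median 1.93) for L and 172 to 217 CPM (median 187) for S, a 122-fold difference. The skin genes krt62, a keratin (51.9-fold), and scnn1b, a subunit of the epithelial sodium channel (26.3-fold), lay in the same group. Their S copies had medians of 187 and 42.8 CPM.

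The other large S biases spanned metabolism, muscle and the nucleus. ldhb, a lactate dehydrogenase subunit, had 4.29 to 7.33 CPM (median 5.57) for L and 449.8 to 603 CPM (median 558) for S (95.2-fold). tnnc1, the calcium sensor of slow and cardiac muscle, had 2.79 to 6.23 CPM (median 5.29) for L and 292 to 338 CPM (median 313) for S (64.6-fold), which is the opposite bias to that of ckm and neb in the same organ system. ddx23, a helicase of the spliceosome, had 0.732 to 2.14 CPM (median 1.61) for L and 102 to 118 CPM (median 110.2) for S (75.1-fold). tpr, a filament protein of the nuclear pore basket, had 4.91 to 7.36 CPM (median 5.30) for L and 128 to 260.4 CPM (median 134) for S (27.5-fold). The remaining 4 were nktr (34.1-fold), the glutathione-cleaving enzyme ggt5 (27.6-fold), rabgap1 (22.8-fold) and the intramembrane protease sppl2b (36.4-fold). The L copy of sppl2b had 0 counts in control large replicate 2, where its listed level is the offset alone. Its median, 0.295 CPM, was below the detection limit, and 23 of its 31 counts came from 1 library, at 3.22 CPM. The S copy was steady at 12.5 to 17.2 CPM. L minus S of sppl2b thus ran from −7.38 to −2.22 between libraries. With a prior count of 2 the L minus S of sppl2b was −4.38, and with edgeR −4.19, in place of −5.18.

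**Figure D3:**
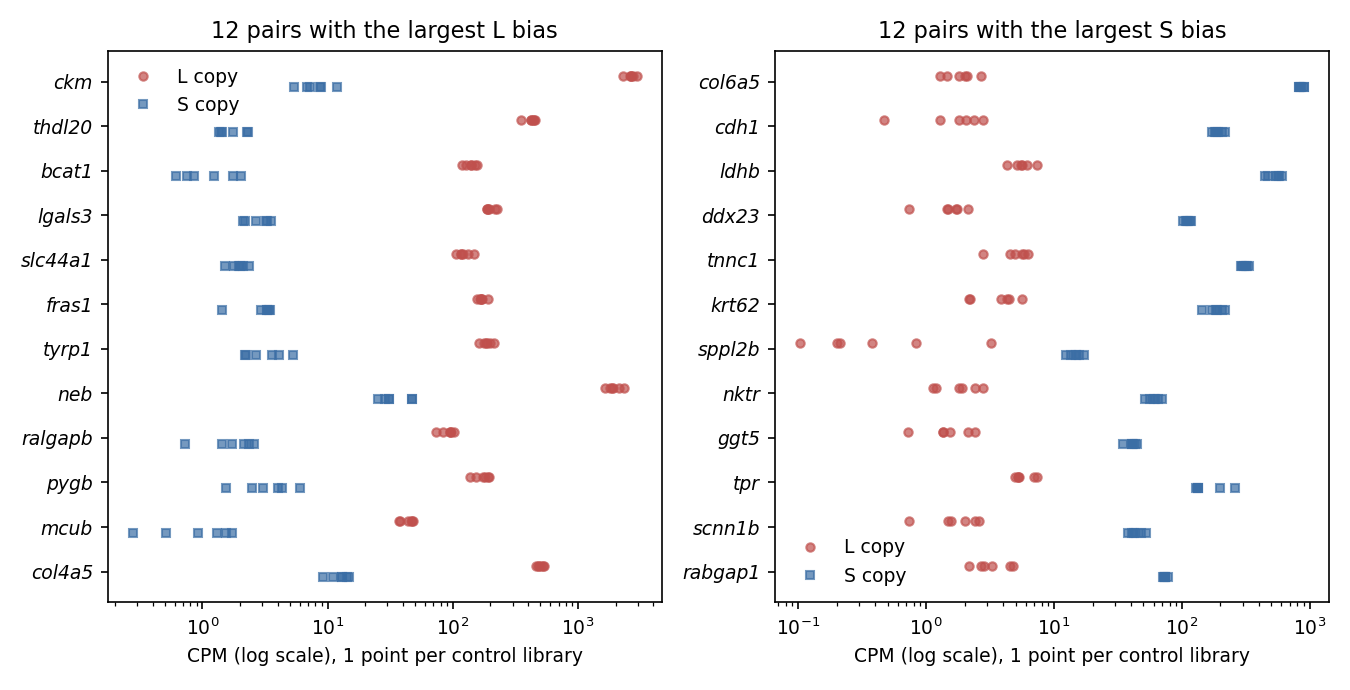
CPM (log axis) of the L copy (red circles) and the S copy (blue squares) in each of the 6 control libraries, for the 12 pairs with the largest L bias (left) and the 12 with the largest S bias (right). The pairs run from ckm at a 335-fold difference to rabgap1 at 22.8-fold. They were picked for the size of the difference, so the lack of overlap between their copies follows from the choice.

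The highest group by level, with 71.6% balanced, included genes of muscle, skin and translation. The 6 balanced pairs with the highest summed level were krt7, eef1a1, atp2a1, actb, col1a1 and actc1. atp2a1, the calcium pump of the muscle sarcoplasmic reticulum, had 1958 to 3227 CPM (median 2406) for L and 1853 to 3169 CPM (median 2489.9) for S. L minus S was 0.01 ± 0.03, and the copies overlapped across libraries. Beta-actin (actb), the cytoskeletal actin, had 1693 to 2217 CPM (median 1914) for L and 1973 to 2526 CPM (median 2219) for S with L minus S of −0.20 ± 0.03, and the elongation factor eef1a1 had 2584 to 3252 CPM (median 2960.0) for L and 2177 to 2514 CPM (median 2379.5) for S with L minus S of 0.31 ± 0.02. Balanced here means less than 2-fold, not equal. The collagen col1a1 favoured S in all 6 libraries (1019.9 to 1334 CPM, median 1180.2, for L and 1818 to 2296 CPM, median 2099, for S), by −0.83 ± 0.03. The cardiac actin actc1, which embryonic skeletal muscle also uses, favoured L in all 6 by 0.85 ± 0.03 (1583 to 2147 CPM, median 1779.5, for L and 839 to 1178 CPM, median 996, for S), and neither passed the 2-fold test.

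Function was followed through 47 lists of at least 8 pairs. Each count below is followed by its share of the list, to be read against 19.0% L-biased, 7.58% S-biased and 54.3% balanced over all pairs. The lists also differed in level: the median summed level was 9.75 CPM for transmitter receptors and 417 CPM for cytosolic ribosomal proteins. The part of level in the shares of the lists was not tested. The cytosolic ribosome, whose proteins are made in fixed proportion, had 7 L-biased, 3 S-biased and 37 balanced pairs of 55 (12.7%, 5.45% and 67.3%), with a median of 0.29 against 0.30 over all pairs. A strong exception was rps19 of the small subunit, with 13.5 to 18.7 CPM (median 16.8) for L and 318 to 409 CPM (median 346) for S, an S bias of 21.1-fold. In the other direction rplp0, the stalk protein of the large subunit, had 582 to 766 CPM (median 647) for L and 91.7 to 151 CPM (median 114) for S (5.63-fold), and rpl10 was 4.02-fold higher on L. rpl36 was 2.81-fold higher on S. Ribosomal protein genes have many near copies, so their counts can depend on how shared reads were divided. The counts of rpl36 were whole in both copies in all 6 control libraries, unlike those of rps19, rplp0 and rpl10.

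The mitochondrial ribosome had 3 L-biased and 5 S-biased of 20 pairs (15% and 25%) and a median of 0.02. mrpl42 (12.96-fold, medians 1.52 and 21.1 CPM for L and S) and mrpl3 (10.97-fold, medians 2.81 and 28.4 CPM) were higher on S, while mrps21 (8.58-fold, medians 15.6 and 1.82 CPM) was higher on L. Of the factors that build ribosomes 6 of 30 were L-biased and 1 S-biased (20% and 3.33%), led by utp23 (13.2-fold) and utp4 (4.86-fold) of the small-subunit processome toward L and rrp9 (2.61-fold) toward S. Among translation factors the counts were 7 and 3 of 34 (20.6% and 8.82%). eif5a had 575 to 683 CPM (median 641) for L and 56.5 to 68.8 CPM (median 62.5) for S, a 10.2-fold L bias, and eef1g, a subunit of the elongation factor complex, was 8.14-fold higher on L. eif4h, which assists the helicase that unwinds the 5′ end of mRNA, had 34.5 to 44.6 CPM (median 39.7) for L and 348 to 402 CPM (median 374) for S, a 9.42-fold S bias.

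The enzymes that load tRNA had 3 L-biased and 2 S-biased of 17 pairs (17.6% and 11.8%). Phenylalanyl-tRNA synthetase joins subunits made by farsa and farsb, and farsb was 22.9-fold higher on L (medians 84.03 and 3.36 CPM). nars1, for asparagine, was 11.6-fold higher on L, and qars1 and sars1, for glutamine and serine, were 3.23-fold and 2.63-fold higher on S. The favoured copy thus differed between enzymes of this class.

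In glycolysis 5 of 15 pairs were L-biased, 3 S-biased and 6 balanced (33.3%, 20% and 40%). gapdh, which is often used as a reference gene, had 73.3 to 94.2 CPM (median 81.8) for L and 667 to 793 CPM (median 728) for S, an S bias of 8.76-fold (L minus S −3.13 ± 0.04). pfkp, a phosphofructokinase, was 4.16-fold higher on L. pgam2 of muscle (3.38-fold) and eno1 (2.42-fold), both chosen after their values were seen, were also L-biased.

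In the citrate cycle 4 of 17 pairs were L-biased and 0 S-biased (23.5% and 0%), and the median was −0.01. idh2, the mitochondrial isocitrate dehydrogenase that makes NADPH, had 459 to 500.4 CPM (median 479.7) for L and 32.3 to 43.3 CPM (median 38.2) for S, a 12.6-fold difference. pdha1, of the pyruvate dehydrogenase that feeds the cycle, was 3.77-fold higher on L. The nuclear genes of the respiratory chain, whose products must assemble with mitochondrial ones, had 10 L-biased and 6 S-biased of 52 (19.2% and 11.5%). In complex I, ndufs1 had 125 to 134 CPM (median 127) for L and 9.25 to 14.1 CPM (median 11.5) for S (11.04-fold toward L). In complex III, uqcrh was 9.68-fold higher on L and uqcrb 7.15-fold higher on S, so most counts of uqcrh and of uqcrb came from different copies. atp5mf of the ATP synthase was 7.35-fold higher on S.

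Lists with more S-biased than L-biased pairs were few, and the spliceosome was the largest of them, with 9 S-biased, 3 L-biased and 30 balanced of 46 pairs (19.6%, 6.52% and 65.2%). Besides ddx23, plrg1, a core factor of the active spliceosome, was 5.25-fold higher on S (medians 9.54 and 52.8 CPM for L and S). The L-biased members were less extreme: sf3b3 (2.50-fold) and srsf6 (2.34-fold). The machinery of RNA polymerase II and mediator had 5 S-biased and 3 L-biased of 39 (12.8% and 7.69%), and its median, −0.17, was below 0. polr2i, a polymerase subunit, and gtf2a1, of the factor TFIIA, were 6.01-fold and 4.88-fold higher on S. med27 of mediator was 18.4-fold and gtf2b, the factor TFIIB, 6.93-fold higher on L. In the nuclear pore 2 of 13 were S-biased (tpr and nup205, the latter 2.43-fold) and 1 L-biased (nup133, 2.47-fold), or 15.4% and 7.69%.

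Chromatin regulators were mostly balanced (45 of 67), with 7 L-biased and 6 S-biased (67.2%, 10.4% and 8.96%). smarca4, the motor of the SWI/SNF remodeller, had 39.2 to 50.3 CPM (median 44.1) for L and 215 to 242 CPM (median 232) for S, an S bias of 5.28-fold. ezh2, the methyltransferase of the Polycomb complex, had 72.4 to 90.2 CPM (median 82.9) for L and 13.5 to 20.96 CPM (median 17.4) for S, an L bias of 4.64-fold. phf1, a partner of that same Polycomb complex, was 6.83-fold higher on S, and arid4a 8.96-fold higher on L. Genes of DNA replication and mitosis had 8 L-biased and 3 S-biased of 35 (22.9% and 8.57%), with a median of 0.57. smc2, which compacts mitotic chromosomes, was 18.97-fold higher on L, and rpa2, which coats single-stranded DNA, was 5.31-fold higher. mad2l1 of the spindle checkpoint (4.15-fold) and cdt1 of origin licensing (3.23-fold) were higher on S. pcna, the replication clamp, was balanced (medians 101 and 85.8 CPM, chosen after its values were seen). Of 106 zinc finger pairs 70 were balanced, 16 L-biased and 9 S-biased (66%, 15.1% and 8.49%).

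The proteasome had 25 of 33 pairs balanced, 4 L-biased and 1 S-biased (75.8%, 12.1% and 3.03%). psma2 was nearly equal, with 41.4 to 52.02 CPM (median 44.01) for L and 40.4 to 49.9 CPM (median 43.8) for S (chosen after its values were seen). psma3 of the core ring and psmc4 of the cap were 5.90-fold and 5.51-fold higher on L, and psma5 was 3.69-fold higher on S. Chaperones had 33 of 49 balanced, 7 L-biased and 3 S-biased (67.3%, 14.3% and 6.12%). The chaperonin, a ring of related subunits that folds actin and tubulin, included cct8 at 3.59-fold toward L and cct4 at 3.29-fold toward S. In the endoplasmic reticulum, canx had 683 to 733 CPM (median 699.7) for L and 182 to 203 CPM (median 189) for S (3.69-fold toward L), and the disulfide reductase dnajc10 was 18.2-fold higher on S. Lysosomal genes had the lowest balanced share of the 47 lists, 2 of 13, with 4 L-biased (scarb2 at 3.57-fold and gns at 3.15-fold among them) and 2 S-biased (npc2 at 3.73-fold and ctsc at 3.16-fold), or 15.4%, 30.8% and 15.4%. The proton pump that acidifies this compartment had 3 L-biased and 1 S-biased of 16 V-type ATPase pairs (18.8% and 6.25%), and its G subunits parted: atp6v1g3 was 6.28-fold higher on L and atp6v1g1 3.01-fold higher on S.

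Of 20 Hox pairs, which set position along the body axis, 2 were L-biased, 0 S-biased and 10 balanced (10%, 0% and 50%). hoxa5 had 12.98 to 19.8 CPM (median 16.7) for L and 2.32 to 4.74 CPM (median 3.27) for S (5.03-fold, L minus S 2.33 ± 0.16). hoxa13, of the posterior end, had 4.83 to 7.80 CPM (median 6.72) for L and 0.0927 to 2.27 CPM (median 1.68) for S (5.93-fold, 2.57 ± 0.40), with an S copy that had 0 counts in control large replicate 3, where 0.0927 CPM is the offset alone. Without that library L minus S was 1.78. Hox pairs without a bias call included hoxc6, at mean levels of 43.9 CPM for L and 26.8 CPM for S, and hoxa3, at 35.7 and 31.0 CPM. These were the most abundant Hox pairs, chosen after their values were seen, and both were balanced. hoxa9 (1.21 ± 0.11) and hoxb9 (−0.96 ± 0.25), chosen after their values were seen, leaned opposite ways and neither was resolved.

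The Sox, Pax, Fox, Irx and sine oculis-related factors had 14 L-biased, 1 S-biased and 32 balanced of 55 pairs (25.5%, 1.82% and 58.2%). The S-biased gene was foxa4, of the floor plate and notochord, with 0.891 to 2.03 CPM (median 1.10) for L and 3.52 to 6.29 CPM (median 4.93) for S (4.15-fold). foxn3 had 87.3 to 93.2 CPM (median 91.2) for L and 8.998 to 15.1 CPM (median 13.4) for S (7.28-fold toward L), and foxq1 was 4.66-fold higher on L. foxi1, which specifies ionocytes of the epidermis, was 2.49-fold higher on L. The eye and neural factors pax6 (0.02 ± 0.08) and sox3 (0.11 ± 0.09) were balanced at medians 26.6 and 25.1 CPM and medians 26.7 and 23.7 CPM. These 3 genes were chosen after their values were seen. Neural bHLH and homeodomain factors had 8 L-biased and 4 S-biased of 59 (13.6% and 6.78%). pou2f1 (4.12-fold) and nkx3-2, a jaw joint factor (5.28-fold), were higher on L, and hes5.3 (3.86-fold) and en2, a marker of the midbrain-hindbrain boundary (3.64-fold), were higher on S. Nuclear receptors had 2 L-biased and 0 S-biased of 25 (8% and 0%) with a median of 0.68. The orphan receptor esrra had 88.5 to 119 CPM (median 108) for L and 24.04 to 29.5 CPM (median 27.1) for S (3.96-fold), and the photoreceptor factor nr2e3 was 4.07-fold higher on L.

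The medians of the signalling lists were all at or above 0.24, against 0.30 over all pairs. That of Notch and Hedgehog genes was the lowest and lay below the value over all pairs. Wnt genes had 7 L-biased, 0 S-biased and 25 balanced of 40 pairs (17.5%, 0% and 62.5%), with a median of 0.60. L was higher on average in 33 of 40 (82.5%, against 62.5% over all pairs). The ligand wnt5b had 8.04 to 14.2 CPM (median 11.8) for L and 1.76 to 3.34 CPM (median 2.42) for S (4.76-fold) and the Wnt enhancer rspo2 had 7.47 to 10.8 CPM (median 8.24) for L and 1.13 to 3.67 CPM (median 2.37) for S (4.03-fold). FGF genes had 5 L-biased and 0 S-biased of 21 (23.8% and 0%). Their median, 0.76, was the highest of the lists drawn by class in the bar chart, and L was higher in 19 (90.5%). The members with the largest bias were an inhibitor, spred2 (4.50-fold, medians 74.3 and 16.3 CPM), and fgf13, an intracellular member that is not secreted (4.14-fold, medians 23.4 and 5.48 CPM). The receptor fgfr2 was balanced at 0.64 ± 0.05, and the ligand fgf8, at a few CPM, was unresolved at 0.66 ± 0.22, both chosen after their values were seen.

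BMP and TGF-beta genes had 4 L-biased and 2 S-biased of 39 (10.3% and 5.13%). A ligand and its inhibitor had the largest biases toward L: inhba, the activin subunit, had 19.1 to 21.6 CPM (median 19.99) for L and 0.818 to 3.51 CPM (median 3.05) for S (8.12-fold), and follistatin (fst), which binds activin, had 17.9 to 21.9 CPM (median 18.8) for L and 2.32 to 3.66 CPM (median 2.70) for S (6.79-fold). The BMP ligand bmp2 and the BMP inhibitor nog2 were 2.63-fold and 3.40-fold higher on S, both at low level, and they lost the call in 9 of 17 and 7 of 16 alternatives. Notch and Hedgehog genes had 24 of 33 balanced, 4 L-biased and 1 S-biased (72.7%, 12.1% and 3.03%). In the Hedgehog pathway, the ligand shh was balanced (12.7 to 19.05 CPM, median 14.7, for L and 7.04 to 11.1 CPM, median 10.3, for S, chosen after its values were seen). The signal transducer smo had 62.6 to 74.3 CPM (median 68.999) for L and 12.7 to 20.4 CPM (median 16.5) for S (4.19-fold), and the ligand trap hhip was 8.50-fold higher on L. Axon guidance genes had 3 L-biased, 0 S-biased and 27 balanced of 37 (8.11%, 0% and 73%), led by efna1 (4.65-fold) and sema3e (3.33-fold).

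Of 26 pairs of transmitter receptors 6 were L-biased and 0 S-biased (23.1% and 0%), and of 50 ion channels 11 and 2 (22% and 4%). The glutamate receptor gria3 had 39.9 to 50.1 CPM (median 44.1) for L and 2.04 to 5.75 CPM (median 4.77) for S (10.3-fold). trpa1, a sensor of irritants in sensory neurons (7.05-fold), and the calcium channel subunit cacna2d3 (6.73-fold) were higher on L, and trpc1 (4.11-fold) and cacng7 (2.78-fold) on S. A further 15 of 50 were unresolved. Genes of the synapse and the neuronal cytoskeleton had 4 L-biased, 3 S-biased (13.3% and 10%) and a median of −0.03 over 30 pairs. Neuroligins, which join synapses, parted: nlgn3 had 33.6 to 49.1 CPM (median 44.5) for L and 6.33 to 8.17 CPM (median 7.41) for S (5.96-fold toward L) and nlgn2 had 13.8 to 18.3 CPM (median 14.7) for L and 66.2 to 76.9 CPM (median 73.1) for S (4.69-fold toward S). syn2, of synaptic vesicles, was 8.63-fold higher on S, and vamp2, of the fusion machinery, 3.87-fold higher on L.

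In the eye, photoreceptor genes had 3 L-biased and 1 S-biased of 13 pairs (23.1% and 7.69%). The rod transducin gnat1 had 27.3 to 52.01 CPM (median 38.98) for L and 8.34 to 19.7 CPM (median 12.3) for S (3.13-fold) and the arrestin gene sag had 15.1 to 26.6 CPM (median 17.8) for L and 3.68 to 6.58 CPM (median 4.89) for S (3.84-fold), both toward L. The next step of the same cascade included pde6g, a phosphodiesterase subunit, with 2.38 to 4.86 CPM (median 3.84) for L and 9.85 to 17.8 CPM (median 12.8) for S, an S bias of 3.68-fold. Of the 11 melanophore pairs 2 were L-biased, tyrp1 and slc24a5 (4.34-fold), and 0 were S-biased (18.2% and 0%).

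Muscle genes were balanced in 46.9% of pairs (15 of 32), with 8 L-biased and 6 S-biased (25% and 18.8%) and a median of 0.07. Beyond ckm, neb and tnnc1, unc45b, which folds myosin, had 12.2 to 18.6 CPM (median 17.4) for L and 71.5 to 89.6 CPM (median 81.5) for S, an S bias of 5.01-fold. The troponin C of fast muscle, tnnc2, was balanced at −0.16 ± 0.03 (408 to 499.5 CPM, median 443, for L and 482 to 572 CPM, median 487, for S, chosen after its values were seen), in contrast to its slow counterpart tnnc1 at −6.01 ± 0.09. Keratins, the filaments of skin, had 4 S-biased and 1 L-biased of 11 (36.4% and 9.09%) and a median of −0.49. krt70 had 8.57 to 15.7 CPM (median 11.3) for L and 117 to 159 CPM (median 154) for S (12.7-fold toward S) and krt19 had 193 to 239 CPM (median 223) for L and 52.03 to 79.8 CPM (median 70.1) for S (3.28-fold toward L). The keratin genes form families of similar sequence, so these values share the uncertainty of the ribosomal genes.

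Extracellular matrix held biased pairs in both directions. Collagens had 5 L-biased and 2 S-biased of 20 (25% and 10%), in which col4a2 (6.78-fold) joined col4a5 on the L side and col12a1 (3.24-fold) joined col6a5 on the S side. The other basement membrane and matrix genes had 16 L-biased and 7 S-biased of 48, and 16 balanced (33.3%, 14.6% and 33.3%). thbs3, a thrombospondin, had 103 to 137 CPM (median 126) for L and 3.27 to 4.91 CPM (median 4.11) for S (29.9-fold toward L), and loxl1, which cross-links elastic fibres, was 8.79-fold higher on L. nid1, which links laminin to collagen IV, had 15.4 to 21.6 CPM (median 18.1) for L and 179.8 to 221 CPM (median 199) for S (10.8-fold toward S). The collagenase mmp1 was called S-biased, but its L copy had 0 counts in 4 of the 6 libraries and its copies overlapped across libraries (0.0666 to 3.06 CPM, median 0.0980, for L and 1.76 to 6.36 CPM, median 5.51, for S). Its L minus S of −4.19 became −2.92 with a prior count of 2, −2.82 with edgeR, −4.94 with DESeq2, −3.46 without control small replicate 3 and −4.83 without control small replicate 2, and it kept the call in each, but the size of the ratio is set largely by the offset. Among 50 adhesion genes 11 were L-biased and 2 S-biased (22% and 4%). The gap junction gene gjb2 had 47.2 to 70.7 CPM (median 65.4) for L and 1.88 to 3.93 CPM (median 2.59) for S (22.97-fold) and the laminin receptor itga7 of muscle was 19.3-fold higher on L, while both S-biased genes were cadherins, cdh1 and cdh26 (15.9-fold).

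Secreted liver proteins had 5 L-biased, 4 S-biased and 7 balanced of 21 (23.8%, 19% and 33.3%). Fibrinogen, the clotting protein, is built from the chains fga, fgb and fgg. fga had 16.7 to 26.1 CPM (median 23.2) for L and 196 to 491 CPM (median 349.7) for S (15.4-fold toward S) and fgg had 5.54 to 11.3 CPM (median 10.004) for L and 113 to 212 CPM (median 155) for S (17.04-fold toward S). fgb, chosen after its values were seen, also leaned toward S at −0.97 ± 0.06, with 49.1 to 109 CPM (median 75.1) for L and 80.2 to 199.9 CPM (median 159) for S, and did not pass the 2-fold test. The 2 largest biases toward L in the list were those of cfb and serpinc1, while the median of the list was −0.03, against 0.30 over all pairs. serpinc1 (antithrombin) had 51.3 to 70.4 CPM (median 56.4) for L and 1.35 to 5.64 CPM (median 2.63) for S (21.4-fold). cfb, complement factor B, was 35.3-fold higher on L. Apolipoprotein apoa1 (0.10 ± 0.03) and transthyretin ttr (0.14 ± 0.05), chosen after their values were seen, were balanced. The copies of both overlapped across libraries, with apoa1 at 398 to 774 CPM (median 571) for L and 323 to 748 CPM (median 549) for S.

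The globin and erythroid list had only 6 pairs, fewer than the minimum of 8. Of these, 4 were L-biased, 0 S-biased and 2 balanced (66.7%, 0% and 33.3%, against 19.0%, 7.58% and 54.3% over all pairs). Immune genes had 13 L-biased and 3 S-biased of 48 (27.1% and 6.25%), with a median of 0.60. stat2, which carries the interferon signal, had 28.1 to 35.6 CPM (median 33.1) for L and 1.96 to 2.73 CPM (median 2.37) for S (13.7-fold toward L). cd248, a surface protein of stromal cells, was 38.2-fold higher on L, and cd81 (2.99-fold) and ifi30 (2.79-fold) were higher on S. The list was matched by symbol and holds genes that other tissues also use.

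Outside the amino acid carriers, 24 of 77 solute carriers were L-biased and 5 S-biased (31.2% and 6.49%). The mitochondrial carrier slc25a22 had 32.6 to 38.8 CPM (median 34.3) for L and 1.61 to 4.36 CPM (median 2.26) for S (14.3-fold toward L), and slc25a16 (6.004-fold) and slc25a46 (5.81-fold), also of mitochondria, were higher on S. Of 26 amino acid carriers 5 were L-biased and 2 S-biased (19.2% and 7.69%). The slc38 family split widely: slc38a4 had 70.6 to 83.2 CPM (median 75.8) for L and 3.90 to 4.99 CPM (median 4.24) for S (17.6-fold toward L), while slc38a10 (12.7-fold) and slc38a5 (6.58-fold) were higher on S. In sterol synthesis 12 of 18 pairs were balanced, 2 L-biased and 1 S-biased (66.7%, 11.1% and 5.56%). srebf2, the transcription factor that switches on these genes, had 10.6 to 15.9 CPM (median 14.7) for L and 102 to 114 CPM (median 107) for S (7.71-fold toward S). Of 9 cytochrome P450 and glutathione S-transferase pairs 2 were L-biased and 0 S-biased (22.2% and 0%), led by cyp26b1, which degrades retinoic acid (8.52-fold, medians 33.1 and 3.82 CPM), and mgst3 (4.75-fold). Small GTPases had 11 L-biased and 2 S-biased of 59 (18.6% and 3.39%), and in the Arf family arf1 was 6.54-fold higher on L (medians 507 and 79.4 CPM) and arf4 2.28-fold higher on S (medians 81.6 and 193 CPM).

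Motile cilia genes had 11 of 16 pairs balanced, 1 L-biased and 1 S-biased (68.8%, 6.25% and 6.25%), with cfap52 (3.10-fold) higher on L and tekt2 (2.92-fold) on S. Clock genes had 7 of 10 balanced, 2 L-biased and 0 S-biased (70%, 20% and 0%), with the kinase csnk1d (3.55-fold) and the factor hlf (2.63-fold) higher on L. DNA repair genes had 5 of 8 balanced, 1 L-biased and 0 S-biased (62.5%, 12.5% and 0%), with apex1 (2.24-fold) higher on L.

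**Figure D4:**
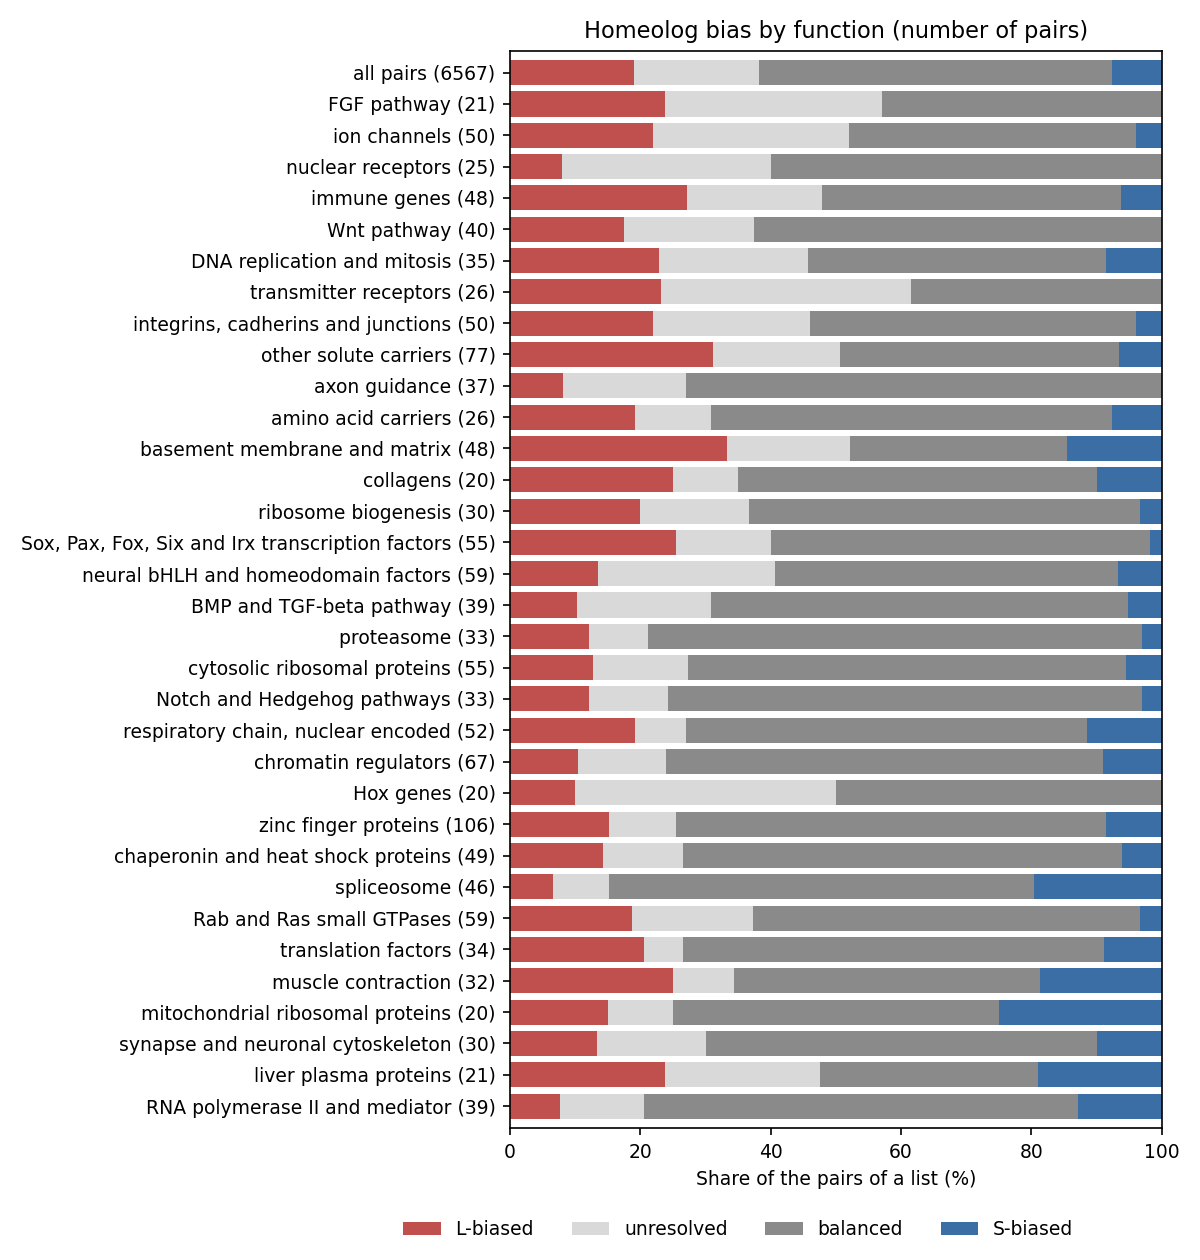
Share of pairs (horizontal axis, %) that were L-biased (red), unresolved (light grey), balanced (dark grey) and S-biased (blue) in each list of at least 20 pairs, ordered by median L minus S, with all 6567 pairs at the top. FGF, Wnt, nuclear receptor, transmitter receptor, axon guidance and Hox genes had no S-biased pair. These lists held 20 to 40 pairs, few of which would be S-biased at the 7.58% of all pairs. The spliceosome, RNA polymerase II and mediator, and mitochondrial ribosomal proteins had more S-biased than L-biased pairs.

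Some pairs of which only 1 copy reached the table extend the biased end of the scale. Among the deposited counts, which also list low genes, 7798 symbols had both copies. Only L was in the log2 CPM table for 469 of them and only S for 195, and neither was for 567. The absent copy had some counts in most cases: it was at 0 in all 6 control libraries for 17 S copies and 6 L copies. The expressed copy averaged 20 CPM or more in 57 of the 469 and 26 of the 195. Most of these pairs were thus low. Where only L was in the table, median counts over the 6 control libraries were 151.5 for L and 22.3 for S. Where only S was, they were 26 for L and 126 for S. By level, and so chosen after their values were seen, the first was col17a1, a collagen of the attachment between epidermis and dermis, at 219.9 CPM for L and 0.155 CPM for S over the summed controls. The GTPase rhoc followed at 168 CPM for L and 0.162 CPM for S. On the S side ifitm1, an interferon-induced membrane protein, stood at 0.905 CPM for L and 213 CPM for S, and hnrnpul1, an RNA-binding protein, at 0.0522 CPM for L and 135 CPM for S. A further 4911 symbols had an L entry and no S entry among the counts, and 1754 had S only, which says which copies the annotation names, not which are transcribed.

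The same classes were then sought in the 6 thioridazine libraries, which share no sample with the controls. With the same rule, 1148 of the 1249 L-biased pairs (91.9%) and 436 of the 498 S-biased pairs (87.6%) were again in their class, and 3274 of the 3566 balanced pairs (91.8%) were again balanced. No pair changed from L-biased to S-biased or back. Most others became unresolved, 98 from the L-biased and 60 from the S-biased class.

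Whether L minus S moved with group size was tested in the control libraries. With limma 4 of 6567 pairs passed an adjusted p under 0.05, 2 upward (0.0305%) and 2 downward (0.0305%) in groups of 300, and 452 pairs (6.88%) had an unadjusted p under 0.05. sri (sorcin, a calcium-binding protein) had 31.5, 25.97 and 27.6 CPM for L in control small and 40.7, 41.4 and 44.04 CPM in control large, and S values of 148, 151 and 141 CPM and 126, 137 and 131 CPM. The L copy was higher in every large-group library and the S copy lower, and L minus S changed by 0.73 ± 0.11 log2 (adjusted p = 0.00447). purb, a single-stranded DNA-binding protein, had 17.5, 18.7 and 20.5 CPM for S in control small and 26.2, 29.2 and 34.2 CPM in control large, against an L copy of 356 to 419.5 CPM in all 6. Its S copy was higher in every large-group library, a change of −0.62 ± 0.09 (adjusted p = 0.00447).

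The other 2 calls were a neutrophil enzyme and an iron carrier. mpo (myeloperoxidase) changed by 0.55 ± 0.09 (adjusted p = 0.00837), with S at 50.8, 70.5 and 60.8 CPM in control small and 56.9, 42.98 and 38.9 CPM in control large, where the groups overlapped. tf (transferrin) changed by −0.77 ± 0.14 (adjusted p = 0.0201), from L above S in each small-group library (66.8, 30.5 and 43.8 CPM against 51.2, 22.6 and 37.1 CPM) to S above L in each large-group library (42.7, 41.4 and 48.9 CPM against 69.8, 46.8 and 62.95 CPM). mpo lost the call without control large replicate 1 or 2, and tf with 2 surrogate variables and without control small replicate 2 or control large replicate 1 or 3. sri and purb kept it in all 11 alternatives (adjusted p 0.00271 to 0.0438 and 0.00343 to 0.0446). Leaving out control small replicate 1 raised the number of calls to 14, and leaving out control large replicate 1 lowered it to 2. The pairs next in order, rbp4, scx and col6a5 upward and fam118b, selenof and neb downward, did not pass (adjusted p 0.0744 to 0.126).

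The effect of thioridazine was tested over 12 libraries (median SE 0.13) against 6 for group size (median SE 0.18), so the counts of calls are not comparable. Averaged over both group sizes, 76 of 6567 pairs passed with limma, 41 toward L (0.624%) and 35 toward S (0.533%), and 813 had an unadjusted p under 0.05. This count depended on single libraries and on the model: it was 11 with 2 surrogate variables, and 25 to 40 without control small replicate 2, control large replicate 1 or 3, thioridazine small replicate 1, or thioridazine large replicate 2 or 3. fads2, a desaturase that makes polyunsaturated fatty acids, had S values of 4.14, 3.93 and 4.74 CPM and 7.06, 5.31 and 4.67 CPM in the controls and 21.6, 27.5 and 30.3 CPM and 25.8, 18.5 and 26.9 CPM in the exposed libraries. Every exposed library was above every control, whereas the L copy overlapped (18.5 to 23.8 CPM in controls, 20.2, 37.9 and 45.7 CPM in thioridazine small and 32.99, 30.8 and 30.9 CPM in thioridazine large), and L minus S changed by −1.76 ± 0.14 (adjusted p = 9.22e-08).

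acsbg2, which activates fatty acids, moved the same way by −0.96 ± 0.08 (adjusted p = 1.07e-07). Its S copy was 13.2 to 17.3 CPM in controls and at 52.4, 59.5 and 50.99 CPM in thioridazine small and 42.8, 44.3 and 41.2 CPM in thioridazine large, with no overlap. srebf2 became more S-biased, by −0.65 ± 0.11 (adjusted p = 0.00405). Its S copy stood at 102 to 114 CPM in controls and at 226, 224 and 272 CPM in thioridazine small and 201, 207 and 193 CPM in thioridazine large. acsl3, another activator of fatty acids, moved toward L by 0.66 ± 0.08 (adjusted p = 2.77e-05), with an L copy of 38.1 to 54.1 CPM in controls and 78.6, 82.3 and 85.4 CPM in thioridazine small and 66.6, 79.2 and 74.01 CPM in thioridazine large. By fold change, the copy with the larger rise was thus S in fads2, acsbg2 and srebf2, and L in acsl3. The L copy of acsbg2 also rose. Its means were 78.2 and 72.8 CPM in control small and large, and 131 and 115 CPM in thioridazine small and large. The S means of acsbg2 were 15.2, 15.3, 54.3 and 42.8 CPM in the same order.

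The largest change was that of xepsin, an epidermis-specific serine protease of *Xenopus*. Its S copy had 40.02, 36.4 and 24.6 CPM in control small, 26.2, 41.4 and 36.6 CPM in control large and 24.5, 32.5 and 19.2 CPM in thioridazine small, but 0.354, 0.540 and 0.434 CPM in thioridazine large, where it had 2 or 3 counts in each library against 128 or more in each of the other 9. The L copy stayed between 0.599 and 4.87 CPM in all 12 libraries. Mean L minus S was −4.07, −4.88 and −3.19 in these groups in turn and 1.90 in thioridazine large, values that rest on the few counts of the weak copy. The average change with thioridazine was 3.82 ± 0.31 (adjusted p = 9.22e-08), and the effect of group size differed between exposed and control embryos (adjusted p = 1.64e-05). Toward L the named pairs also held atp1b2, a sodium pump subunit (0.63 ± 0.09), csdc2 (1.02 ± 0.17) and aldh1l2 of mitochondrial folate metabolism (0.64 ± 0.11). Toward S they held angpt4, a vascular growth factor (−1.90 ± 0.27), and thbs3 (−0.77 ± 0.13). Of these, aldh1l2 and thbs3 lost the call with 2 surrogate variables, and all 10 named pairs kept their direction in the 17 alternatives run for each. The S copy of angpt4 had only 1 to 6 counts in each control library and 11.04 to 36.67 in each exposed one. The size of its change thus rests on few counts in the controls.

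**Figure D5:**
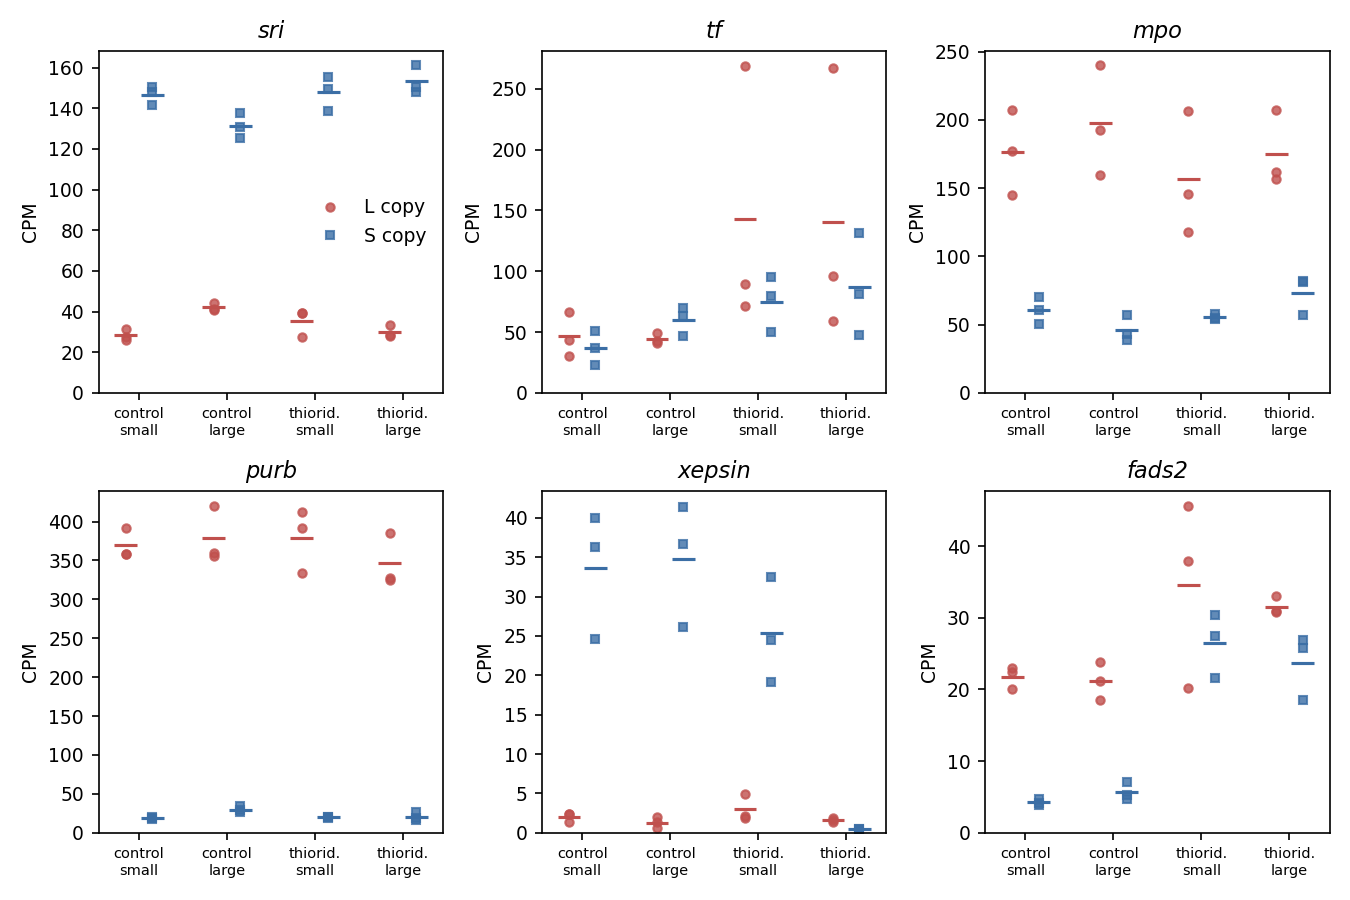
CPM (vertical axis, linear, from 0) of the L copy (red circles) and the S copy (blue squares) in each library of the 4 groups, with the group mean as a bar. In sri, tf, mpo and purb L minus S differed between control small and control large, although single copies could overlap. The S copy of xepsin was at 0.354 to 0.540 CPM in thioridazine large only. The S copy of fads2 was higher in every exposed library than in every control.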

How the data were processed

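RNA of 12 pools of 15 whole tadpoles was depleted of ribosomal RNA, made into stranded libraries and read as single ends by the study. As deposited, the expected counts are the authors' RSEM estimates per gene after Bowtie2 and STAR, so they need not be whole. Neither the labels nor the methods state tool versions, the build behind the counts or the counting strand. The deposited log2 values are log2 CPM made by the authors with limma's voom after TMM scaling and a filter. Recomputing them from the counts matched within 4.97e-14. They cover 26050 of 42638 genes, more than the paper states were left by its filter, so they need not be the gene set that it tested.

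Pairs were symbols with an L and an S entry. The within-library difference of log2 CPM was fitted with limma 3.58.1 in R 4.3.3 on the 6 control libraries, with group size coded so that the intercept is the mean of both sizes, and tested against a 2-fold threshold (treat) with Benjamini-Hochberg adjustment over 6567 pairs. Balanced pairs had a 95% interval within 2-fold. Group size was tested in the controls, and thioridazine, averaged over group sizes, in all 12 libraries. No shift for transcript length could be made, so the values are per count and not per base. Named biased pairs had 1 sign in all 6 libraries. The named pairs were the 12 largest biases in each direction, the 2 largest in each direction of every list with 8 or more pairs, the 6 most abundant balanced pairs, and the 5 smallest p-values in each direction of both effects. A few pairs that the rule names are not reported here. Pairs outside this rule are said to be chosen after their values were seen. The pairs, lists and rules were chosen with earlier results of these data known. Lists were matched by symbol, and RefSeq records of Xenopus_laevis_v10.1 gave chromosome, neighbours and gene span only. The alternatives were edgeR 4.0.16, DESeq2 1.42.0 (both on rounded counts), sva 3.50.0, voom weights, a prior count of 2, minimum levels, other thresholds, the replicate block and each library left out. Replicates differed by more than sampling noise, and none was merged.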

Additional observations from a re-analysis of the deposited data

Results flagged for a closer look

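In 12 of 208 named pairs (5.77%) L minus S in 1 of the 6 control libraries stood apart from the other 5 by more of the range than Dixon's 95% limit for 6 values allows, and chance flags about 1 in 20 such groups. In control small replicate 3, fras1 was at 7.05 (the others 5.59 to 5.71), nkx3-2 at 3.60 (1.95 to 2.45) and ctsc at −2.05 (−1.68 to −1.52). In control small replicate 2, farsb was at 3.83 (4.50 to 4.87), inhba at 4.57 (2.55 to 2.89) and ttr at 0.55 (−0.07 to 0.16). col2a1 was at 0.22 in control small replicate 1 (0.34 to 0.36). In control large replicate 3, hoxa13 was at 6.27 (1.49 to 2.29), angpt4 at 5.67 (4.23 to 4.67) and srebf2 at −3.30 (−2.95 to −2.84). gria3 was at 4.29 in control large replicate 1 (2.98 to 3.36), and mgst3 at 1.47 in control large replicate 2 (2.27 to 2.55). In none of them did the direction of the bias change, apart from ttr, whose ratio lay on both sides of 0. The high value of hoxa13 came with an S copy at 0 counts, and those of inhba and angpt4 with S copies of 0.818 and 0.278 CPM. The median of L minus S over all pairs was 0.331 in control small replicate 3, above the 0.288 to 0.303 of the other 5 libraries.

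The change of L minus S with group size differed between exposed and control embryos in 2 of 6567 pairs (limma, interaction term, adjusted p under 0.05), while 420 had an unadjusted p under 0.05. For xepsin the difference was 5.90 ± 0.62 (adjusted p = 1.64e-05), which rests on S copies of 2 or 3 counts in each thioridazine large library. For sri it was −1.01 ± 0.16 (adjusted p = 0.00952): mean L minus S was −2.37 in control small, −1.64 in control large, −2.08 in thioridazine small and −2.36 in thioridazine large.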

How the results depend on the processing

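With no fold threshold 3548 pairs were L-biased and 1891 S-biased, with 1.5-fold 2031 and 894, and with 4-fold 353 and 126, which follows from the threshold itself. The following pair of settings was chosen after seeing the data. Among the 3634 pairs with gene spans within 1.2 times of each other there were 638 L-biased, 228 S-biased and 2094 balanced pairs (17.6%, 6.27% and 57.6%). Among the 1352 pairs with whole counts in both copies there were 302, 153 and 554 (22.3%, 11.3% and 41%), with a median of 0.28 and a median summed level of 21.5 CPM against 50.1 CPM in the other pairs. The counts are lower because fewer pairs were tested. The cause of the different shares was not tested. With no table filter there were 1646 L-biased, 641 S-biased and 3577 balanced of 7650 pairs, with a median of 0.35. With the filter there were 1249, 498 and 3566 of 6567, so the balanced share was lower without it and both biased shares higher. For the effect of group size edgeR called 7 pairs, and for thioridazine 2 surrogate variables left 11. The cause was not tested.

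Leaving out 1 control library gave 1187 to 1215 L-biased, 476 to 482 S-biased and 3452 to 3499 balanced pairs and medians of 0.29 to 0.31. Leaving out 1 library gave 2 to 14 calls for group size and 25 to 110 for thioridazine. With the replicate block there were 1244 L-biased, 496 S-biased and 3550 balanced pairs, 5 calls for group size and 65 for thioridazine. Same-numbered control libraries did not deviate together in L minus S (correlations −0.072, −0.0022 and −0.033). Effects that move both copies alike cancel in this difference, so it cannot settle whether the numbers pair the libraries. In log2 CPM, where such effects remain, the correlations were −0.098, 0.051 and −0.049. Between differently numbered libraries they were −0.11 to 0.154. DESeq2 called 1096 and 418 pairs and edgeR 1357 and 551. No named biased pair and no named pair called for an effect changed direction in any alternative. The balanced pairs atp2a1, pax6, psma2 and tf, at ratios near 0, had values on both sides of 0. The direction of pairs that are not named was not followed through all alternatives. Of 181 named biased pairs 79 lost the call at 4-fold and 11 at other settings: apex1, arl4c, bmp2, cacng7, en2, foxi1, hlf, ifi30, nog2, nup133 and rrp9. Alternatives that need transcript lengths were not run. edgeR and the other thresholds gave no balanced count. Depth limits the low pairs most: 469 of the 1314 lowest pairs were unresolved.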
